A study of Rattus norvegicus with 6 samples.

Results

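The miR-26 family is a set of microRNAs (miRNAs, short RNAs that pair with messenger RNAs and lower their output) with a common seed, the stretch of bases 2 to 8 that leads target pairing. It was measured here in the kidneys of control and aristolochic acid (AA) treated rats. The members were the probes whose rat name was rno-miR-26a or rno-miR-26b and the probes named miR-26, miR-26a or miR-26b of other species, without the passenger strands (the other arm of each hairpin, marked with an asterisk). This rule used names only and gave 5 of the 5560 probes on the array. Of these, 2 were named for rat and 3 for other species only. Each of the 5 passed the filter on low signal that 1132 probes passed, and each was at or above an intensity of 32, the detection limit in the study's methods, on all 6 arrays.

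The arrays were custom vertebrate miRNA chips read in 1 colour, with 1 array for each of 6 male rats. All rats were of the Fisher 344 strain with the Big Blue Transgenic genotype, a line that carries a bacterial reporter for counting mutations. The 3 controls (replicates 13, 14 and 15) were untreated, so a gavage without AA was not part of the comparison. Rats of both groups were 6 weeks old at the start. The 3 AA rats (replicates 19, 20 and 21) were dosed by gavage with the sodium salt of AA, a plant toxin that damages the renal tubule and causes tumors. They were given 10.0 mg/kg on 5 occasions each week for 12 weeks and were killed 1 day after the final dose. The RNA came from a piece of whole kidney, in which fewer cells of a type and less miRNA per cell cannot be told apart.

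miR-26 genes lie in introns of the genes for small C-terminal domain phosphatases, enzymes that keep the retinoblastoma protein active, and miRNA and host act together as brakes on entry into the cell cycle. Known targets of miR-26 include cyclins and Ezh2, the methyltransferase of the Polycomb repressive complex. In the kidney and other organs miR-26a has also been described as a restraint on TGF-beta driven fibrosis.

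The target sequences of the 5 probes, as the array files give them, are printed first because the members differ by few bases and each value below belongs to 1 of these sequences. The seed is in capitals.
rno-miR-26a: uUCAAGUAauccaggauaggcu
mdo-miR-26: uUCAAGUAauccaggauaggc
dre-miR-26b: uUCAAGUAauccaggauagguu
rno-miR-26b: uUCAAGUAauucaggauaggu
cfa-miR-26b: uUCAAGUAauucaggauagguu

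All 5 targets carried the same seed. Counted from 1 at the 5′ end and with rno-miR-26a as the reference, rno-miR-26b differed by C11U and C21U. The opossum target mdo-miR-26 had no substitution from rno-miR-26a and lacked its last base. The zebrafish target dre-miR-26b differed from rno-miR-26a by C21U alone, so it kept the base of rat miR-26a at position 11. From rno-miR-26b, whose name it shares, it differed by U11C and was 1 base longer. By substitutions it was thus equally near to both rat targets. The dog target cfa-miR-26b had no substitution from rno-miR-26b and was 1 base longer. By position 11, the probes thus fell into 3 with C (rno-miR-26a, mdo-miR-26 and dre-miR-26b) and 2 with U (rno-miR-26b and cfa-miR-26b). The probes are therefore no independent measurements of separate genes, and how far each probe binds the target of another was not tested.

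The 2 rat targets were identical to the mature sequences rno-miR-26a-5p and rno-miR-26b-5p of RefSeq. Their hairpins, from the RefSeq annotation of the GRCr8 assembly, place each mature miRNA, in capitals, in its precursor and its host gene.
Mir26a: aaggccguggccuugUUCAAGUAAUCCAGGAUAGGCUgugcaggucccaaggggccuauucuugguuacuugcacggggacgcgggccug
Mir26b: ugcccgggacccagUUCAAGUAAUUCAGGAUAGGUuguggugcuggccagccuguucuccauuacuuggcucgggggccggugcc

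Mir26a lies on the plus strand at chr8:127633048-127633137 within Ctdspl, and its mature arm covers positions 16 to 37 of the 90 bases. Mir26b lies on the plus strand at chr9:83425709-83425793 within Ctdsp1, and its mature arm covers positions 15 to 35 of the 85 bases. Both host genes encode small C-terminal domain phosphatases. The arrays held no probe for a messenger RNA, so neither the hosts nor targets such as Ezh2 were measured.

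The array of AA replicate 20 stood apart from the others before any comparison was made. Its mean probe signal above the empty spots was 149, against 263 to 484 on the other 5 arrays, and the share of tested probes well above background was 66.8%, against 84.9% to 97.9%. Some of its markers also went against its tissue label. The liver marker rno-miR-122 had a deposited intensity of 15191 on this array and of 8.17 to 48.5 on the others. Markers here and below were read from rat-named probes only. Of the kidney markers, miR-192, miR-194 and miR-10a were at or above 32 on all 6 arrays. The rat-named probes of miR-204 and miR-215 were below 32 on all of them. miR-215 probes of other species passed the filter but were not counted, such as hsa-miR-215 (change of AA minus control -1.10, adjusted p in limma 0.885). The summed kidney markers came to 2745 on AA replicate 20, to 4697 to 5037 in the controls and to 4815 and 5227 on the other AA arrays. On AA replicate 20 miR-10a was at 1179, against 2378 to 3603 on the other arrays, and miR-194 at 264, against 432 to 802. miR-192 was not lower there, at 1295 within the 1189 to 1586 of the other arrays. The changes, counts and pair shifts below are given with and without this array, and the part of liver RNA or of low signal in the results was not tested.

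The probes with U at position 11, rno-miR-26b and cfa-miR-26b, were lower on every AA array than on any control array. Such a separation held for 5.57% of all tested probes, and for 8.73% without AA replicate 20. Their mean changes were -0.88 and -0.78 on the log2 scale, and -0.55 and -0.42 without that array. The 3 probes with C at position 11 overlapped between the groups. All 5 probes had a lower mean in AA, as had 54.2% of all tested probes. No member reached an adjusted p of 0.05, and the shifts of the 3 overlapping probes were near 0 or above it once AA replicate 20 was left out. The values behind these statements follow by member, as log2 signal after background correction and quantile normalization.

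rno-miR-26a, the most studied member and the one tied to fibrosis, measured 14.10, 13.66 and 14.13 in the controls, in the order 13, 14 and 15. In AA replicates 19, 20 and 21 it measured 13.86, 12.94 and 13.99. AA replicate 20 was the lowest array and the other AA arrays lay between the controls, so the groups overlapped. The mean was 13.96 ± 0.26 (SD, n = 3) in the controls and 13.59 ± 0.57 (SD, n = 3) in AA. The change was -0.37 (SE 0.35, 95% confidence interval -1.20 to 0.46), with an adjusted p of 0.885 in limma and an exact two-sided permutation p of 0.5. Without AA replicate 20 the change was -0.033 (SE 0.25, interval -0.62 to 0.56, adjusted p in limma 0.963).

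rno-miR-26b, the sister miRNA from the Ctdsp1 gene, measured 13.38, 13.29 and 13.18 in the controls. In AA replicates 19, 20 and 21 it measured 12.76, 12.01 and 12.45. All 3 AA arrays were below all 3 controls, with AA replicate 20 lowest. The mean was 13.28 ± 0.10 (SD, n = 3) in the controls and 12.41 ± 0.38 (SD, n = 3) in AA. The change was -0.88 (SE 0.28, interval -1.54 to -0.21), a ratio of AA to control of 0.545. Its adjusted p was 0.871 in limma, and the exact two-sided permutation p was 0.1, the smallest that 3 against 3 arrays allow. Without AA replicate 20 the change was -0.55 (SE 0.23, interval -1.10 to 0.00037, adjusted p in limma 0.602), over 1.5 times smaller, and the remaining AA arrays were still below all controls.

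The levels are visible on the less processed scales too. The deposited intensity of rno-miR-26b was 9580, 9986 and 8061 in the controls and 6713, 3658 and 5624 in AA replicates 19, 20 and 21. That of rno-miR-26a was 15924, 12949 and 15999 in the controls and 13732, 6859 and 13394 in AA. On this scale too rno-miR-26b did not overlap between the groups, whereas rno-miR-26a did. In the scanner signal above the empty spots, with no normalization, rno-miR-26b was 16884, 11256 and 8296 in the controls and 12205, 947 and 5972 in AA. There the groups overlapped, with AA replicate 19 above controls 14 and 15, so the separation of rno-miR-26b rests on a scaling between arrays.

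**Figure D1:**
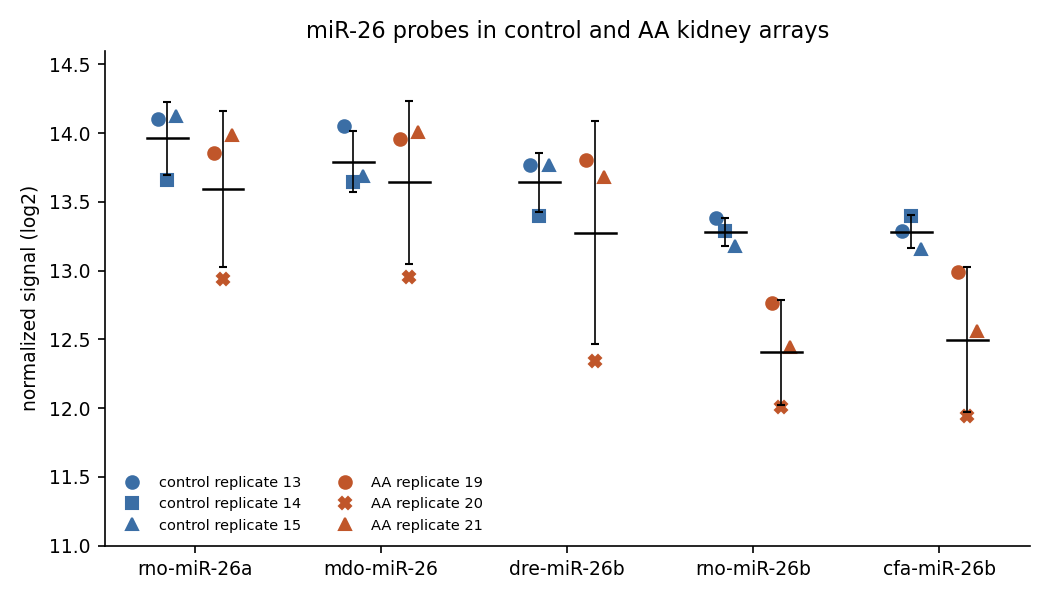
The vertical axis is the normalized log2 signal, and the 5 miR-26 probes stand along the horizontal axis with control arrays in blue and AA arrays in orange. Each point is 1 rat, lines are group means and bars are SDs (n = 3), and the AA points of rno-miR-26b (12.01 to 12.76) and cfa-miR-26b all lie below their controls, with the AA replicate 20 cross lowest for every probe.

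Of the probes for other species, cfa-miR-26b, which shares the bases of rat miR-26b, measured 13.29, 13.40 and 13.16 in the controls. Its AA values were 12.99, 11.94 and 12.56 in replicates 19, 20 and 21. As with rno-miR-26b, all AA arrays were below all controls. The change was -0.78 (SE 0.33, interval -1.55 to -0.019), with an adjusted p of 0.885 in limma and an exact two-sided permutation p of 0.1. Without AA replicate 20 it was -0.42 (SE 0.24, interval -0.99 to 0.14, adjusted p in limma 0.672), again without overlap.

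mdo-miR-26, the shortened form of the miR-26a target, measured 14.05, 13.64 and 13.69 in the controls and 13.96, 12.96 and 14.01 in AA replicates 19, 20 and 21. The AA array of replicate 20 was lowest and the other AA arrays lay near the top of the controls. The change was -0.15 (SE 0.36, interval -0.99 to 0.68, adjusted p in limma 0.927), and 0.16 (SE 0.24, adjusted p in limma 0.851) without AA replicate 20.

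dre-miR-26b, named miR-26b but with the miR-26a base at position 11, measured 13.77, 13.40 and 13.77 in the controls and 13.80, 12.34 and 13.68 in AA replicates 19, 20 and 21. Its groups overlapped like those of rno-miR-26a. The change was -0.37 (SE 0.43, interval -1.37 to 0.63, adjusted p in limma 0.885), and 0.078 (SE 0.23, adjusted p in limma 0.904) without AA replicate 20. With AA replicate 20 included, its mean change was to 2 decimals that of rno-miR-26a and not that of rno-miR-26b, whose name it shares. This match was between means and did not hold array by array. rno-miR-26a minus dre-miR-26b was 0.33, 0.26 and 0.36 in the controls and 0.052, 0.60 and 0.31 in AA replicates 19, 20 and 21. Without AA replicate 20 the change of rno-miR-26a was -0.033, against the 0.078 of dre-miR-26b. Whether the base at position 11 sets the change was not tested.

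**Figure D2:**
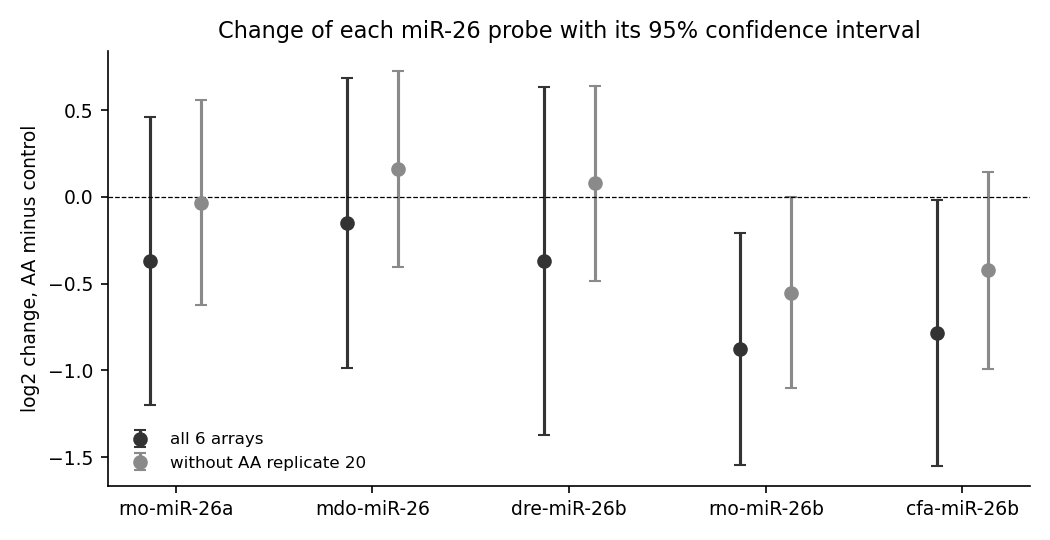
The vertical axis is the log2 change of AA minus control for each miR-26 probe, with its 95% confidence interval in limma, not adjusted for the number of probes. Black marks use all 6 arrays and grey marks leave out AA replicate 20, which moves rno-miR-26b from -0.88 to -0.55 and rno-miR-26a from -0.37 to -0.033.

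Across the family, 5 of 5 probes had a lower mean in AA, a direction that 54.2% of all tested probes shared. Without AA replicate 20 it was 3 of 5, against 50.9%. No member was called at an adjusted p of 0.05 in limma, where 0.177% of the tested probes were called in either direction. At an unadjusted p under 0.05 in limma, 2 members were lower, against 3.8% of the tested probes. With AA replicate 20 left out it was 0 of 5, against 2.55%. The AA arrays were all below the controls for 2 of 5 members, against 5.57% of the tested probes, and for 2 of 5 without AA replicate 20, against 8.73%. Ordered by p-value, rno-miR-26b was number 20 and cfa-miR-26b number 53 of 1132, while rno-miR-26a, dre-miR-26b and mdo-miR-26 were numbers 401, 503 and 832. The median change of the 5 probes was -0.37, and that of all tested probes was -0.053. Leaving out AA replicate 20 brought these to -0.033 and -0.0063, with 2 of the 5 probes then higher in AA. Of the other-species probes, cfa-miR-26b carries the bases of rno-miR-26b and mdo-miR-26 those of rno-miR-26a but the last. dre-miR-26b is 1 substitution from each rat target. The 5 probes are therefore not 5 independent readings, and how many separate RNAs the counts stand for was not tested.

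Whether the rat members moved by unequal amounts was asked within arrays, where a shift of the whole array cancels. A probe's signal also depends on how well it binds, so only the shift of a difference between AA and control is read. rno-miR-26a minus rno-miR-26b was 0.72, 0.37 and 0.95 in the controls and 1.09, 0.93 and 1.54 in AA replicates 19, 20 and 21. All AA arrays but replicate 20 were above the highest control. The mean was 0.68 ± 0.29 (SD, n = 3) in the controls and 1.19 ± 0.32 (SD, n = 3) in AA. The shift was 0.51 (SE 0.25), with an exact two-sided permutation p of 0.2, or 0.5 after adjustment over the 5 pairs compared. Without AA replicate 20 the shift was 0.52 and the groups no longer overlapped.

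The pair from other species gave a like value. dre-miR-26b minus cfa-miR-26b was 0.48, -0.0038 and 0.61 in the controls and 0.81, 0.40 and 1.12 in AA replicates 19, 20 and 21. The shift was 0.41 (SE 0.28, exact two-sided permutation p 0.3), and 0.50 without AA replicate 20, then with no overlap. These 2 targets differ at position 11 alone. The pairs with the same base there had smaller shifts. rno-miR-26b minus cfa-miR-26b shifted by -0.092 (SE 0.10, exact two-sided permutation p 0.4), and by -0.13 without AA replicate 20, where all AA arrays were below the controls. rno-miR-26a minus dre-miR-26b shifted by 0.00068 (SE 0.16, exact two-sided permutation p 1.0), and by -0.11 without that array, with overlap. rno-miR-26a minus mdo-miR-26 shifted by -0.22 (SE 0.14, exact two-sided permutation p 0.1), and by -0.20 without that array, with all AA arrays below the controls both times, although these targets differ by the last base alone. Groups without overlap were therefore not particular to the pairs that differ at position 11. None of the 5 pairs passed the adjusted threshold, and the 4 pairs beyond the rat pair were chosen after the values were seen.

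**Figure D3:**
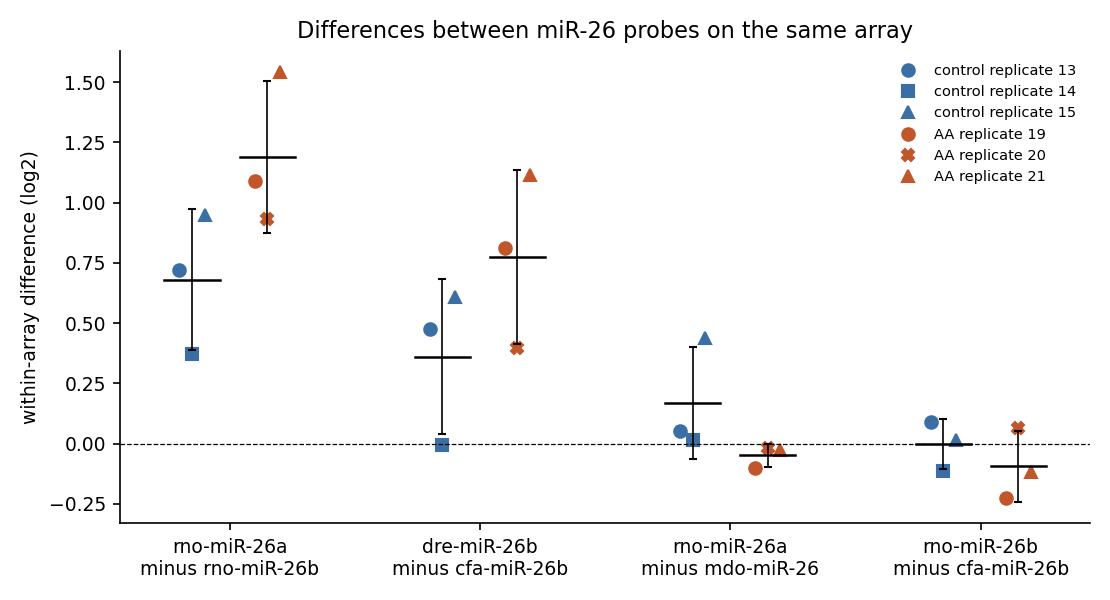
The vertical axis is the difference in normalized log2 signal between 2 miR-26 probes on the same array, shown for 4 of the 5 pairs with control arrays in blue and AA arrays in orange. Lines are means and bars are SDs (n = 3), and the mean of rno-miR-26a minus rno-miR-26b is 0.68 in the controls and 1.19 in AA.

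Each probe was printed on 2 spots in different blocks, which shows how precisely 1 array measures it. On control replicate 14 the first spot was brighter than the second for all 5 members, by 0.46 to 0.82 on the log2 scale, where the median over the 566 probes at or above 32 on all arrays was 0.42. On the other 5 arrays the members lay between -0.49 and 0.47. The spread between spots was therefore of the size of the changes under study. With the first spot only, the change was -0.62 for rno-miR-26a and -1.11 for rno-miR-26b. With the second spot only, it was -0.12 and -0.65. Both readings put rno-miR-26b below rno-miR-26a, and neither gave an adjusted p under 0.05 in limma for either.

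**Figure D4:**
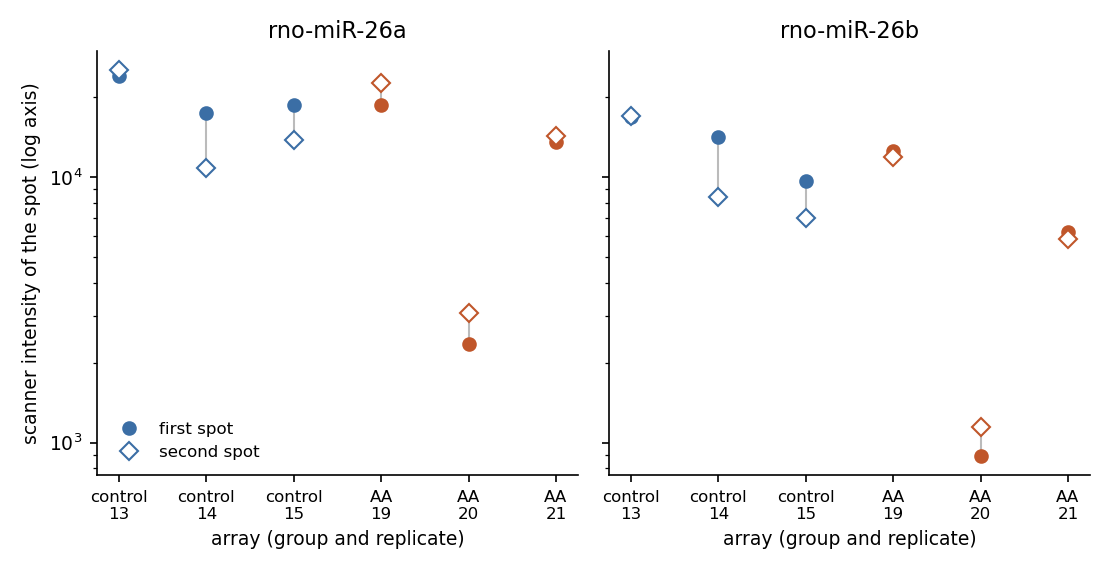
The vertical axis is the scanner intensity of each spot on a log scale and the horizontal axis is the array, for rno-miR-26a on the left and rno-miR-26b on the right. Filled circles are the first spot and open diamonds the second, with the widest gap for both probes on control 14 and the lowest signals on AA 20, where rno-miR-26b reads 893 and 1146.

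Other probes on the array show which signal the family's sequence can give. The seed of miR-26 was shared by 2 probes outside the family, and these are printed because a reading of the seed alone would group them with miR-26.
hsa-miR-1297: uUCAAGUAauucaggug
hsa-miR-4465: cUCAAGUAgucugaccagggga

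The first 15 bases of hsa-miR-1297 are those of rno-miR-26b, from which it differs by A16U and U17G within its 17 bases. Both probes stayed below 32 on all 6 arrays, with a highest deposited intensity of 5.62, and were not tested. A pair of further sequences was picked after the values were seen. ppy-miR-1297 differs from rno-miR-26a by A5G within the seed and by C11U, A16U and U17G beyond it, in a target of 17 bases. Its deposited intensity was at most 0.611. The other sequence, bta-miR-26c, is the exact reverse complement of the rno-miR-26a target.
ppy-miR-1297: uUCAGGUAauucaggug
bta-miR-26c: aGCCUAUCcuggauuacuugaa

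The deposited intensity of bta-miR-26c was at most 0.294, and on no array was it well above background, so the reverse complement gave no signal beside the bright miR-26a probe. The passenger strands of miR-26 had 9 probes, of which 0 reached 32 on any array and the brightest was at 7.43. A change in the passenger arm could therefore not be measured here.

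The probes whose pattern over the arrays was most like that of each rat member were ranked by Pearson's r over the 6 arrays, among 178 tested probes with a rat name. For rno-miR-26a these were miR-99a (r = 0.956), miR-192 (r = 0.954) and miR-93 (r = 0.951). Their r over the 5 arrays without AA replicate 20 was 0.739, 0.786 and 0.619, so the likeness rested in large part on the low values of that array. For rno-miR-26b they were miR-146a (r = 0.942), miR-3593-3p (r = 0.930) and miR-290 (r = 0.929), with 0.971, 0.919 and 0.867 without AA replicate 20. miR-146a, an inducible brake on NF-kappaB signalling, measured 10.82, 10.99 and 10.72 in the controls and 10.25, 9.96 and 9.98 in AA replicates 19, 20 and 21. Its AA arrays were also all below its controls, with a change of -0.78 (SE 0.25, adjusted p in limma 0.871), and of -0.73 without AA replicate 20. These correlations share the arrays and their normalization and describe these 6 rats.

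Markers of kidney and of other cells were set beside the lower rno-miR-26b signal. The 3 kidney markers above the detection limit all had a lower mean in AA, as had 54.2% of all tested probes, with none called. miR-194, which is rich in the renal tubule, had a deposited intensity of 770, 608 and 802 in the controls and 453, 264 and 432 in AA replicates 19, 20 and 21. All its AA arrays were below its controls, with a change of -0.82 (SE 0.34, adjusted p in limma 0.885), and of -0.53 without AA replicate 20. Without that array, 1 kidney marker was higher and 2 lower. The myofibroblast and injury markers miR-21, miR-199a-5p, miR-199a-3p and miR-214 had a higher mean in AA for 4 of 4 probes, with no overlap for 3 of them and none called. All 4 were also higher without AA replicate 20, with none called. Groups did not overlap for 9.98% of all tested probes, counting both directions. Their summed deposited intensity was 2447 to 3136 in the controls and 5931 to 10476 in AA. Leukocyte markers summed to 1774 to 2398 in the controls and 1311 to 1938 in AA, with miR-142-3p, miR-142-5p and miR-223 below 32 on all arrays. Most of that sum was miR-146a, described above, and miR-150, the other leukocyte marker above the limit, had a change of 0.34 (SE 0.26, adjusted p in limma 0.885), in the opposite direction. miR-155 had no rat-named probe, and hsa-miR-155 was at 0.51 (SE 0.31, adjusted p in limma 0.885) over all 6 arrays. Endothelial and smooth muscle markers (miR-126, miR-143 and miR-145) summed to 2618 to 3437 in the controls and 1964 to 3693 in AA, with none called. Muscle markers summed to 200 to 523 in the controls and 85.1 to 603 in AA. Erythroid markers were at 51.3 to 66.3 in the controls and 8.36 to 75.7 in AA, and brain markers did not exceed 5.73 on any array. The sums range over all AA arrays, AA replicate 20 included, and the part of a shift in cell types in the miR-26b values was not tested.

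The miRNAs grouped with miR-26 by role were read from lists. The antifibrotic and epithelial list (the miR-29, miR-30 and miR-200 families) had 11 tested probes, none called in limma, with 3 higher and 8 lower in AA and a median change of -0.15. Leaving out AA replicate 20 turned this to 10 higher and 1 lower with a median of 0.32. Of all tested probes, 54.2% had a lower mean in AA, and 50.9% without that array. The member with the largest change was miR-30b, a tubule-rich miRNA, at -0.65 (SE 0.63, adjusted p in limma 0.885), and at 0.13 without AA replicate 20. The list of cell-cycle restraining miRNAs (let-7, miR-98, miR-15/16, miR-195, miR-34a and miR-101, the last of which also targets Ezh2) had 12 tested probes. Of these, 11 were higher and 1 lower, against the same 54.2% of all tested probes with a lower mean. The median change was 0.19, and 0.25 without AA replicate 20. The lower probe was miR-98, a relative of let-7, at -0.20 (SE 0.46, adjusted p in limma 0.921) over all 6 arrays. Many of the 12 were let-7 probes, each at 0.11 to 0.28, and how far these bind each other's targets was not tested. let-7g was not on the list, and its probe hsa-let-7g was at -0.30 (SE 0.27, adjusted p in limma 0.885) over all 6 arrays. Probes of these families named for other species only were not counted. In this list 1 probe was called, where 0.177% of all tested probes were called in either direction. This was miR-34a, a direct target of p53, higher by 2.58 (SE 0.25, adjusted p in limma 0.00864), and by 3.09 without AA replicate 20 (adjusted p in limma 0.00343). Its deposited intensity was 15.8 to 18.1 in the controls and 267 to 440 in AA, so it passed the filter through the AA arrays alone.

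**Figure D5:**
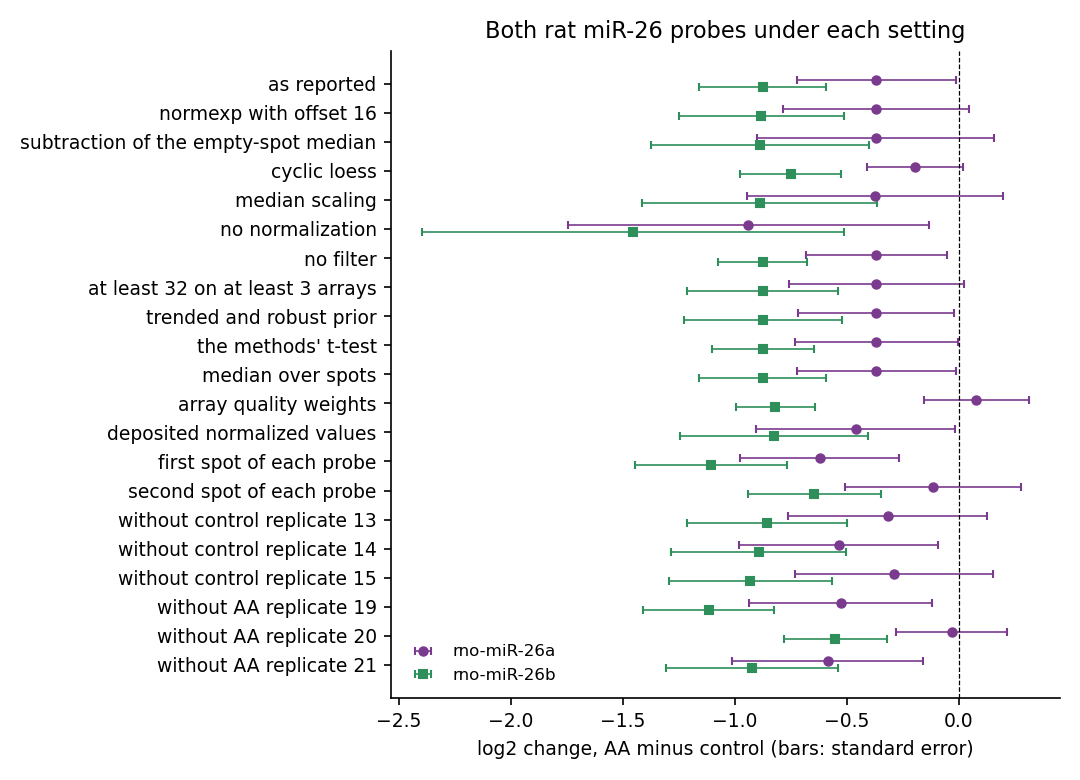
The horizontal axis is the log2 change of AA minus control for rno-miR-26a (purple circles) and rno-miR-26b (green squares), with bars for the standard error, and each row is 1 way of processing the arrays or 1 array left out. rno-miR-26b lies below 0 in every row, from -1.46 to -0.55, while rno-miR-26a reaches 0.078 under array quality weights and -0.033 when AA replicate 20 is left out.

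With array quality weights, which set the weights of all 6 arrays anew, from 0.124 for AA replicate 20 to 5.17 for control replicate 14, the change of rno-miR-26b was -0.82 with an adjusted p of 0.0405 in limma, where 2.39% of the tested probes were called lower. Under the same weights rno-miR-26a was at 0.078 (adjusted p in limma 0.904). Over the 20 alternatives the adjusted p of rno-miR-26b in limma or the methods' t-test ran from 0.0405 to 0.991.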

How the data were processed

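Kidney RNA of 3 control and 3 AA rats was measured on 1-colour (Cy3) arrays, grouped by the labels. With 1 array per rat, the p-values measure the spread between rats and between arrays together, and 3 arrays per group limit the precision. The deposited scanner files hold the median intensity of 15066 spots per array, neither background-corrected nor normalized, among them 1032 control and 2814 empty spots. The authors also deposited a normalized intensity table of 5559 probes. Per their methods it was background-subtracted and normalized by LOWESS. Its column medians were 2.41, 2.19 and 2.40 in the controls and 2.37, 1.22 and 1.99 in AA replicates 19, 20 and 21. Set against each array's scanner signal, r was 0.969 to 1.00 on the log2 scale over 566 probes, so its scale is linear and its direction that of the signal, with no centring by gene. How its spots were combined is not stated.

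Scanner intensity was corrected with normexp (offset 50) over every spot. After removal of control and empty spots, log2 values were quantile-normalized and averaged over the spots of a probe. Deposited intensity at or above 32 on at least 1 array was the filter, with 1 probe outside that table filtered on its scanner signal. limma 3.58.1 in R 4.3.3 (lmFit, eBayes) with Benjamini-Hochberg adjustment over 1132 probes was the test. Refits without an array were renormalized. Exact permutation tests used scipy 1.17.1. Well above background means 3 robust SDs above the empty-spot median. The fit was tested on simulated data with changes larger than those of the members and with no outlying array. It therefore does not show whether changes of the members' size would be found. Named were all tested members, seed-sharing probes, the 3 probes most like each rat member, and of each list the called probes or the largest change. The members and lists were chosen with earlier results of these data known. The alternatives with 1 spot per probe were added after the data were seen.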

Additional observations from a re-analysis of the deposited data

How the results depend on the processing

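Over 20 alternatives, rno-miR-26b and cfa-miR-26b stayed below 0 in all. rno-miR-26a was above 0 only with array quality weights (0.078), where rno-miR-26b was at -0.82 (adjusted p 0.0405 in limma), 1 member was called and the members' median was 0.078. The weights called 44 probes (27 lower), against 2 (none lower) in the reported fit and 0 with cyclic loess, with median scaling and with no normalization, and their estimation stopped before its tolerance was met. mdo-miR-26 turned to 0.00043 with cyclic loess, 0.17 with weights and 0.070 with the second spot only. dre-miR-26b turned to 0.10 with weights. With no normalization the members' median was -1.10, while that of all tested probes was -0.32; median scaling put the latter at 0.24. Leaving out 1 array gave -0.59 to -0.033 for rno-miR-26a, -1.12 to -0.55 for rno-miR-26b, -0.35 to 0.16 for mdo-miR-26, -0.67 to 0.078 for dre-miR-26b and -0.67 to -0.033 for the members' median. It gave 0 to 3 calls over all probes, with 0 when any array but AA replicate 20 was left out (control replicates 13, 14 and 15, AA replicates 19 and 21), and 0 calls among the members. The highest values came without AA replicate 20. The shift of rno-miR-26a minus rno-miR-26b stayed above 0 in 15 alternatives (0.34 to 0.64, exact permutation p 0.2 to 0.4). All 5 members were detected on the scanner signal and at a limit of 64.

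The antifibrotic list's median turned to 0.37 with weights, 0.13 with the second spot only and ran from -0.43 to 0.32 over the arrays left out. The cell-cycle list's called probe was lost (0) with median scaling, cyclic loess and no normalization, and with each array left out but AA replicate 20 (0 to 1). Its median was 0.53, 0.69 and -0.032 in these 3 scalings. The share of probes with an unadjusted p under 0.05 that were higher in AA was 23.2% in the reported fit, 50.0% with median scaling, 48.6% with weights and 66.3% without AA replicate 20. No paired analysis was possible because the groups share no replicate numbers. A slide or scan block was not run, as the sources used here name none. Subtraction of the empty-spot median stood in for a local background.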
